A study of Mus musculus with 675 samples.

Results

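Transcription factors known for building mesenchymal tissues, 10 in number, were followed through single cells carrying the tissue label aorta: Meox1, Meox2, Prrx1, Prrx2, Tcf21, Osr1, Foxc1, Foxc2, Tbx18 and Nr2f2. These 10 genes were chosen by name, with earlier results of these data known. Each matched 1 of the 46517 gene identifiers of the count table through the GENCODE M21 annotation of GRCm38. The 675 cells, profiled by Smart-seq2 (full-length cDNA amplified from 1 sorted cell per well), came from male mice of the C57BL/6 strain, 10 weeks old, with no allele or agent named in the labels. Each of 2 plates held cells pooled from its own 2 mice, called pool A and pool B here. The pool is therefore the replicate (n = 2), and plate and mice cannot be told apart. The labelled protocol names the heart as the organ that was dissociated, whereas the tissue label is aorta.

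Cells were grouped into classes by clustering on genes other than these factors, and each class was named from marker genes. Fibroblast-like cells, led by Pi16, Abca8a and C3, numbered 68 (40 in pool A and 28 in pool B). Endothelial-like cells, led by Cd36, Egfl7 and Gpihbp1, numbered 26 (16 and 10). Smooth muscle-like cells, with Npnt, Kcnmb1 and Actg2 among their leading genes, numbered 581. Total counts ran from 51886 to 713700 per cell, with medians of 144019 in fibroblast-like, 196034 in endothelial-like and 301975 in smooth muscle-like cells. Some smooth muscle RNA appeared in every class, and its part in the results was not tested. Levels are given as CPM, counts of a gene scaled to the summed counts of all cells of its class in its pool, with pool A before pool B. The 7 smooth muscle markers summed to 2083 and 3484 CPM among fibroblast-like cells, to 2007 and 3025 CPM among endothelial-like cells, and to 19949.8 and 18022 CPM among smooth muscle-like cells. The 7 fibroblast markers summed to 13798 and 12438 CPM among fibroblast-like cells, 28.03 and 1036 CPM among endothelial-like cells and 193.9 and 221.7 CPM among smooth muscle-like cells. Endothelial markers, 8 in all, summed to 231.2 and 65.2 CPM among fibroblast-like cells, 10517.5 and 7297 CPM among endothelial-like cells and 102.3 and 51.9 CPM among smooth muscle-like cells. Among the clusters of smooth muscle-like cells, numbers 0, 2, 3 and 10 had leading genes that mark platelets, mast and Schwann cells, cardiomyocytes and pericytes, and cluster 4 was led by the cardiac gene Tnnt2.

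The factors belong to several DNA-binding families. Meox1 and Meox2 are homeobox proteins of the somite and its derivatives, and Meox2 is also known from vascular endothelium. Prrx1 and Prrx2 are paired-type homeobox proteins of limb and craniofacial mesenchyme. Tcf21 is a basic helix-loop-helix protein of the epicardium and of cardiac fibroblasts, and Tbx18 is a T-box protein of the epicardium and of mural cells. Osr1 is a zinc finger protein of intermediate and lateral plate mesoderm, and Foxc1 and Foxc2 are forkhead proteins needed for arteries, lymphatic vessels and the outflow tract. Nr2f2, also called COUP-TFII, is an orphan nuclear receptor of veins, lymphatics and many stromal cells.

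Start regions are shown for 3 members that behaved differently between the classes: Meox2 and Nr2f2, which were higher in fibroblast-like than in smooth muscle-like cells, and Tbx18, which was not. Each line gives the 200 bases before the RefSeq start of the gene on GRCm38.p6, written 5′ to 3′ on the strand of the gene, with motif matches in capitals. The regions are chr12:37108340-37108539 on the plus strand for Meox2, chr7:70366747-70366946 on the minus strand for Nr2f2 and chr9:87731261-87731460 on the minus strand for Tbx18.
Meox2: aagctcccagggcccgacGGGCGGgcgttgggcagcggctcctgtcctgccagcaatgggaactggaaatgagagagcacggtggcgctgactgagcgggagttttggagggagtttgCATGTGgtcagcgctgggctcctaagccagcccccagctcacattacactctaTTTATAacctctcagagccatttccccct
Nr2f2: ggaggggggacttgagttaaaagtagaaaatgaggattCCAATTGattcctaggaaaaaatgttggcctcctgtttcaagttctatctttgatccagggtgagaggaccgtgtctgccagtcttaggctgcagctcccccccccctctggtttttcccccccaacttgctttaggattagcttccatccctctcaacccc
Tbx18: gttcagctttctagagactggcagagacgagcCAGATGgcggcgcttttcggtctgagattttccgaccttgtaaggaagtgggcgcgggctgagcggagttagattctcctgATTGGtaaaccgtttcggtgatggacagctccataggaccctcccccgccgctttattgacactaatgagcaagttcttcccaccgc

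Motifs were searched on both strands: the GC box GGGCGG, the CCAAT box CCAAT, the TATA box TATAAA, the E-box CANNTG and the CArG box. Of 32851 RefSeq start regions of this length, 31.05% held a GC box, 29.3% a CCAAT box, 9.96% a TATA box, 58.2% an E-box and 1.18% a CArG box. Meox2 held 1 GC box, 1 E-box and 1 TATA box read on the opposite strand. Nr2f2 held 1 CCAAT box overlapping 1 E-box, and Tbx18 held 1 CCAAT box on the opposite strand and 1 E-box. A start region was listed in the RefSeq table for 7 of 10 members, and Meox1, Osr1 and Foxc2 had no entry. The CArG box, the site of serum response factor, was matched in 0 of these 7. Their CG dinucleotides ranged from 1 in Prrx1 and in Nr2f2 to 20 in Foxc1 and 21 in Prrx2, against a median of 5 over all regions.

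Meox1 and Meox2 had the largest fold changes of the 10 members over smooth muscle-like cells: both were present in some fibroblast-like and endothelial-like cells and were close to absent from smooth muscle-like cells. Meox1 (ENSMUSG00000001493, chr11:101877510-101894374, minus strand) stood at 61.3 CPM in pool A and 62.7 CPM in pool B in fibroblast-like cells, at 36.98 and 150.004 CPM among endothelial-like cells, and at 0.0544 and 0.137 CPM among smooth muscle-like cells. The fibroblast-like and smooth muscle-like values did not overlap, and each smooth muscle-like value rested on few counts (5 in pool A and 12 in pool B). Counting intervals on those values were 0.0177 to 0.127 CPM and 0.0705 to 0.238 CPM (exact Poisson, 95%). All 17 smooth muscle-like cells with a Meox1 count held exactly 1 count, whereas a single fibroblast-like cell held up to 639 CPM of it.

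Meox2 (ENSMUSG00000036144, chr12:37108540-37179534, plus strand) was likewise near 0 in smooth muscle-like cells and was highest in endothelial-like cells of both pools, with 64.8 and 43.7 CPM (pools A, B) among fibroblast-like cells, 161.3 and 123.7 CPM among endothelial-like cells and 0.131 and 0.0910 CPM among smooth muscle-like cells. Of the 19 smooth muscle-like cells with a Meox2 count, 18 held exactly 1 count and the highest held 2. In fibroblast-like over smooth muscle-like cells the log2 fold change was 9.52 ± 0.96 for Meox1 (SE; adjusted p = 0.00249, edgeR quasi-likelihood test with Benjamini-Hochberg adjustment) and 9.02 ± 0.96 for Meox2 (adjusted p = 0.00306, edgeR). Both genes passed the filter on low counts through their fibroblast-like sums alone, so they had to differ, and the adjusted p-values describe that difference without adding support. In endothelial-like over smooth muscle-like cells the values were 9.73 ± 1.59 for Meox1 (adjusted p = 9.88e-06, edgeR) and 10.31 ± 1.28 for Meox2 (adjusted p = 2.15e-08, edgeR), and there both genes passed the filter through their endothelial-like sums alone, with the same limit.

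Only a minority of fibroblast-like cells carried either gene. Cells were compared at an equal depth of 50000 counts, to which all 675 were thinned. At that depth Meox1 had a count in 10% of fibroblast-like cells of pool A (4 of 40; exact 95% interval 2.79 to 23.7%) and in 17.9% in pool B (5 of 28; 6.06 to 36.9%), against 0.322% (1 cell) and 1.11% (3 cells) of smooth muscle-like cells. Meox2 had a count in 22.5% and 14.3% of fibroblast-like cells (9 of 40 and 4 of 28), in 37.5% and 40% of endothelial-like cells (6 of 16 and 4 of 10), and in 0.965% and 0% of smooth muscle-like cells (3 cells and 0 of 270). The exact 95% interval of that 0% reached 1.36%. A few cells held most of each sum: the highest fibroblast-like cell held 50% of the Meox1 counts in pool A and 35.9% in pool B, and the highest endothelial-like cell of pool A held 97.6%. The 8 endothelial markers summed to 231.2 and 65.2 CPM among these fibroblast-like cells, with 0 of 8 at 100 CPM or more, 0 at zero counts in pool A and 2 in pool B, against 10517.5 and 7297 CPM among endothelial-like cells. Pecam1 stood at 77.2 and 24.99 CPM and Cdh5 at 1.76 and 0 CPM among fibroblast-like cells, and the part of this RNA in the Meox levels was not tested.

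**Figure D1:**
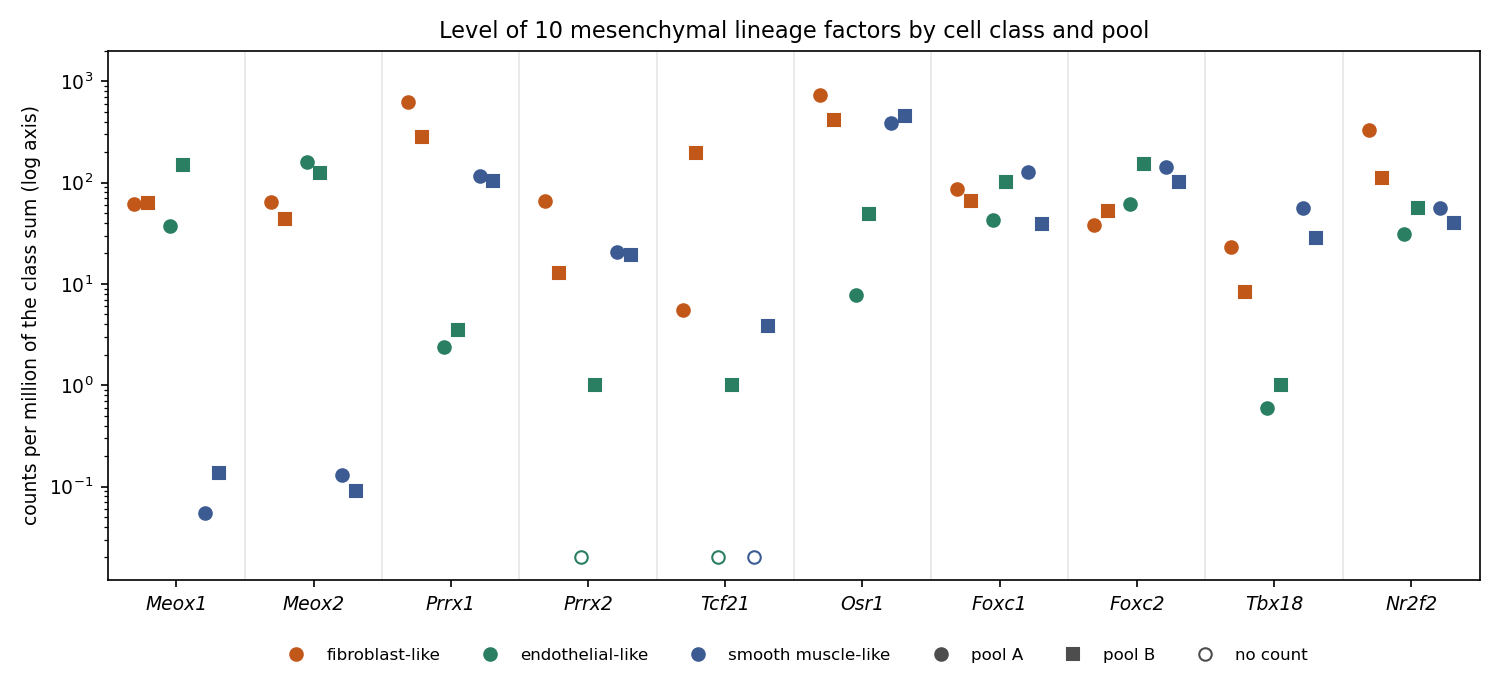
Level of each factor as CPM of the class sum (log axis), with 1 point per pool: circles for pool A, squares for pool B, and open symbols at the bottom for sums without a count. Meox1 and Meox2 lie below 0.2 CPM among smooth muscle-like cells and above 30 CPM in both other classes, whereas Osr1 lies above 300 CPM in fibroblast-like and smooth muscle-like cells.

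Prrx1 was common to fibroblast-like and smooth muscle-like cells and higher in fibroblast-like cells. Prrx1 (ENSMUSG00000026586, chr1:163245119-163313710, minus strand) stood at 629 and 281.3 CPM (pools A, B) among fibroblast-like cells, at 2.39 and 3.54 CPM among endothelial-like cells and at 115.6 and 103.2 CPM among smooth muscle-like cells. The 3 classes did not overlap. The log2 fold change of fibroblast-like over smooth muscle-like cells was 2.07 ± 0.31 (SE; adjusted p = 0.0123, edgeR), with within-pool values of 2.45 in pool A and 1.45 in pool B. Without the pool as a block the adjusted p of Prrx1 was 0.0685, and in 1 fit of all 3 classes it was 0.114, both by edgeR. At equal depth 82.5% and 75% of fibroblast-like cells had a count (33 of 40 and 21 of 28), against 61.4% and 55.9% of smooth muscle-like cells (exact 95% intervals 55.8 to 66.9% and 49.8 to 61.9%). The median fibroblast-like cell held 524 CPM in pool A and 123.3 CPM in pool B, and the median smooth muscle-like cell 39.7 and 21.6 CPM.

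In endothelial-like cells Prrx1 was close to absent. Although 14 of these 26 cells had a Prrx1 count, 13 of them held exactly 1 count and the highest held 2. At equal depth this gave 18.8% and 20% of endothelial-like cells with a count (3 of 16 and 2 of 10). Relative to smooth muscle-like cells Prrx1 was lower in endothelial-like cells by a log2 fold change of -5.22 ± 1.202 (adjusted p = 0.00203, edgeR), and fibroblast-like cells exceeded endothelial-like cells by 7.28 ± 0.75 (adjusted p = 0.00235, edgeR). The endothelial-like against smooth muscle-like call was lost when either smooth muscle-like sum was left out (adjusted p = 0.405 without pool A and 0.316 without pool B, edgeR).

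Prrx2, the paralog of Prrx1, did not pass the test between fibroblast-like and smooth muscle-like cells. Prrx2 (ENSMUSG00000039476, chr2:30834972-30881251, plus strand) stood at 65.1 and 12.7 CPM (pools A, B) among fibroblast-like cells, at 0 and 1.01 CPM among endothelial-like cells and at 20.7 and 19.5 CPM among smooth muscle-like cells. The fibroblast-like values lay on either side of the smooth muscle-like ones, and the log2 fold change was 0.66 ± 0.83 (adjusted p = 0.754, edgeR). Few cells carried it: at equal depth 25% and 10.7% of fibroblast-like cells had a count (10 of 40 and 3 of 28), against 12.2% and 15.2% of smooth muscle-like cells (38 and 41 cells). In smooth muscle-like cells of both pools together, 44 of 581 reached 100 CPM.

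By summed counts, Tcf21 was found mainly in fibroblast-like cells of pool B. Tcf21 (ENSMUSG00000045680, chr10:22817281-22820174, minus strand) stood at 5.57 and 194.4 CPM (pools A, B) among fibroblast-like cells, at 0 and 1.01 CPM among endothelial-like cells and at 0 and 3.83 CPM among smooth muscle-like cells. The endothelial-like values rested on 0 and 2 counts. Among fibroblast-like and smooth muscle-like cells Tcf21 was higher in pool B than in pool A. The number of cells differed in the same way. At equal depth Tcf21 had a count in 2 of 40 fibroblast-like cells of pool A and 11 of 28 of pool B (39.3%). Among smooth muscle-like cells it had a count in 0 cells of pool A (exact 95% interval up to 1.18%) and 16 of 270 of pool B (5.93%). Without thinning, the pool B numbers were 12 fibroblast-like and 35 smooth muscle-like cells. Of the 35 smooth muscle-like cells, 23 held exactly 1 count, and the highest held 53.

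Within each pool Tcf21 was higher in fibroblast-like than in smooth muscle-like cells. In pool A the smooth muscle-like sum held no count. The fibroblast-like level was 170.7-fold a floor set at 3 counts over the smooth muscle-like class sum (0.0326 CPM), a ratio without an interval. That fibroblast-like sum held 38 counts, 84.2% of them in 1 cell. In pool B the log2 ratio was 5.66. The fitted log2 fold change was 6.84 ± 1.05 (SE; adjusted p = 0.0127, edgeR), a value that depends on the prior count because of the sum at 0. With that sum at 0, the smooth muscle-like sums alone would not have passed Tcf21 through the filter on low counts. The call was lost in 4 of 17 alternatives: without the fibroblast-like sum of pool B (1.59, adjusted p = 0.710, edgeR), without that of pool A (6.75, adjusted p = 0.1408, edgeR), without the block (5.84, adjusted p = 0.282, edgeR) and in 1 fit of 3 classes (7.33, adjusted p = 0.114, edgeR). Without the smooth muscle-like sum of pool B the value was 14.91. Against endothelial-like cells the log2 fold change was 7.63 ± 1.63 (adjusted p = 0.0488, edgeR), and it was 3.59 without the fibroblast-like sum of pool B. The endothelial-like sums held 0 and 2 counts of Tcf21. It thus passed the filter on low counts there through its fibroblast-like sums alone, and that adjusted p-value adds no support.

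Osr1 was the highest member in both fibroblast-like and smooth muscle-like cells and low in endothelial-like cells. Osr1 (ENSMUSG00000048387, chr12:9570116-9581500, plus strand) stood at 729.6 and 418 CPM (pools A, B) among fibroblast-like cells, at 7.75 and 48.5 CPM among endothelial-like cells and at 385 and 457 CPM among smooth muscle-like cells. Fibroblast-like and smooth muscle-like values overlapped, with a log2 fold change of 0.52 ± 0.29 (adjusted p = 0.385, edgeR). The endothelial-like values lay far below, by a log2 fold change of -4.39 ± 0.61 against smooth muscle-like cells (adjusted p = 3.63e-07, edgeR). Fibroblast-like over endothelial-like cells gave 4.89 ± 0.92 (adjusted p = 0.0302, edgeR). Both endothelial contrasts of Osr1 missed the threshold without the block (adjusted p = 0.129 and 0.0712, edgeR).

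Over single cells, Osr1 in the fibroblast-like and smooth muscle-like classes lay closer together in pool A than in pool B. In smooth muscle-like cells it was near universal, with a count at equal depth in 83.6% of cells of pool A (exact 95% interval 79.01 to 87.5%) and in 95.6% of those of pool B (92.4 to 97.7%), and 447 of 581 cells reached 100 CPM. The highest smooth muscle-like cell held 2.10% and 2.01% of its class sum. In fibroblast-like cells 90% and 92.9% had a count (36 of 40 and 26 of 28), but in pool B the median cell held 66.6 CPM, 12 of 28 cells reached 100 CPM, and 1 cell held 46.5% of the sum. The median smooth muscle-like cell of that pool held 368 CPM. In pool A the median cell held 395.4 CPM among fibroblast-like and 303.2 CPM among smooth muscle-like cells. There 70% of fibroblast-like cells (28 of 40) and 70.1% of smooth muscle-like cells reached 100 CPM. The highest fibroblast-like cell of pool A held 8.93% of the sum. In endothelial-like cells 25% and 80% had a count (4 of 16 and 8 of 10), and 1 of 26 reached 100 CPM. The highest endothelial-like cell of pool B held 68.75% of its class sum.

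Foxc1 and Foxc2, forkhead paralogs, had counts in some cells of all 3 classes, without a called difference between the classes. Foxc1 (ENSMUSG00000050295, chr13:31806633-31812476, plus strand) stood at 86.8 and 65.7 CPM (pools A, B) among fibroblast-like cells, at 43.2 and 100.5 CPM among endothelial-like cells and at 128.4 and 38.9 CPM among smooth muscle-like cells. All 3 ranges overlapped, and the log2 fold change of fibroblast-like over smooth muscle-like cells was 0.21 ± 0.47 (adjusted p = 0.873, edgeR). Foxc1 in smooth muscle-like cells differed between pools, with a count at equal depth in 70.4% of cells of pool A (exact 95% interval 65.01 to 75.4%) and 37.04% of those of pool B (100 of 270 cells, 31.3 to 43.1%). In fibroblast-like cells it was found in 35% and 35.7% of cells (14 of 40 and 10 of 28). In endothelial-like cells it was found in 31.25% and 40% (5 of 16 and 4 of 10), and the highest cell held 40.7% and 92.96% of the sum.

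Foxc2 (ENSMUSG00000046714, chr8:121116171-121118895, plus strand) stood at 37.8 and 52.2 CPM (pools A, B) among fibroblast-like cells, at 61.7 and 151.5 CPM among endothelial-like cells and at 142.8 and 100.5 CPM among smooth muscle-like cells. The fibroblast-like values were below the smooth muscle-like ones in both pools, yet the log2 fold change of -1.31 ± 0.43 did not pass the test (adjusted p = 0.177, edgeR). At equal depth 20% and 42.9% of fibroblast-like cells had a count (8 of 40 and 12 of 28), against 51.4% and 54.8% of smooth muscle-like cells. In endothelial-like cells the share was 18.75% and 30% (3 of 16 and 3 of 10), and the highest cell held 93.7% and 74.3% of the sum. At 100 CPM or more stood 7 of 68 fibroblast-like cells, against 210 of 581 smooth muscle-like cells.

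Endothelial-like cells were not uniform for the forkhead and Meox genes. Cluster 9 (21 cells), led by Gpihbp1, Kdr and Cd36, which are genes of capillary endothelium, held 183.8 CPM of Meox2, 58.9 CPM of Meox1, 14.3 CPM of Foxc1 and 1.64 CPM of Foxc2. Cluster 11 (5 cells), with Stab1 and Vwf among its leading genes, held 0 CPM of Meox2, 159.995 CPM of Meox1, 267.9 CPM of Foxc1 and 473 CPM of Foxc2. Foxc2 counts were found in 5 of 5 cells of cluster 11 and in 5 of 21 cells of cluster 9, and Meox2 counts in 0 of 5 and 11 of 21. The Meox1 of cluster 11 came from 1 cell. With cluster 9 alone, an alternative chosen after seeing the data, Foxc2 was lower in endothelial-like than in smooth muscle-like cells by a log2 fold change of -5.98 (adjusted p = 0.000227, edgeR), whereas with both clusters it was -0.30 ± 0.71 (adjusted p = 0.894, edgeR). No test was made between clusters 9 and 11.

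Tbx18, a mural and epicardial factor, was higher in smooth muscle-like than in fibroblast-like sums of both pools, without passing the test. Tbx18 (ENSMUSG00000032419, chr9:87702800-87731260, minus strand) stood at 23.2 and 8.25 CPM (pools A, B) among fibroblast-like cells, at 0.596 and 1.01 CPM among endothelial-like cells and at 56.8 and 28.5 CPM among smooth muscle-like cells. The log2 fold change of fibroblast-like over smooth muscle-like cells was -1.42 ± 0.69 (adjusted p = 0.310, edgeR), and that of endothelial-like over smooth muscle-like cells was -5.69 ± 2.05 (adjusted p = 0.103, edgeR). At equal depth a count was present in 10% and 21.4% of fibroblast-like cells (4 of 40 and 6 of 28), against 34.1% and 22.6% of smooth muscle-like cells (exact 95% intervals 28.8 to 39.6% and 17.7 to 28.1%). All 4 endothelial-like cells with a Tbx18 count held exactly 1.

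Nr2f2 was higher in fibroblast-like than in smooth muscle-like cells. Nr2f2 (ENSMUSG00000030551, chr7:70351944-70366735, minus strand) stood at 328.6 and 110.4 CPM (pools A, B) among fibroblast-like cells, at 31.3 and 55.6 CPM among endothelial-like cells and at 56.1 and 40.1 CPM among smooth muscle-like cells. The fibroblast-like values lay above all others, and the log2 fold change over smooth muscle-like cells was 2.13 ± 0.38 (SE, adjusted p = 0.0237, edgeR), with 2.55 within pool A and 1.46 within pool B. Over endothelial-like cells it was 2.29 ± 0.83, which did not pass the test (adjusted p = 0.243, edgeR). The call over smooth muscle-like cells was lost in 6 of 17 alternatives. Among them were the fit without the block (adjusted p = 0.115, edgeR) and that without the fibroblast-like sum of pool A. It was also lost in the fit of deeper cells, those with at least 100000 counts and 2000 genes. At equal depth 77.5% and 50% of fibroblast-like cells had a count (31 of 40 and 14 of 28), against 44.1% and 35.9% of smooth muscle-like cells (exact 95% intervals 38.5 to 49.8% and 30.2 to 41.96%). Antisense genes overlap Nr2f2 and Tbx18 (B130024G19Rik and D030062O11Rik), and since no source used here states whether counting used strand, reads of such pairs cannot be told apart.

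**Figure D2:**
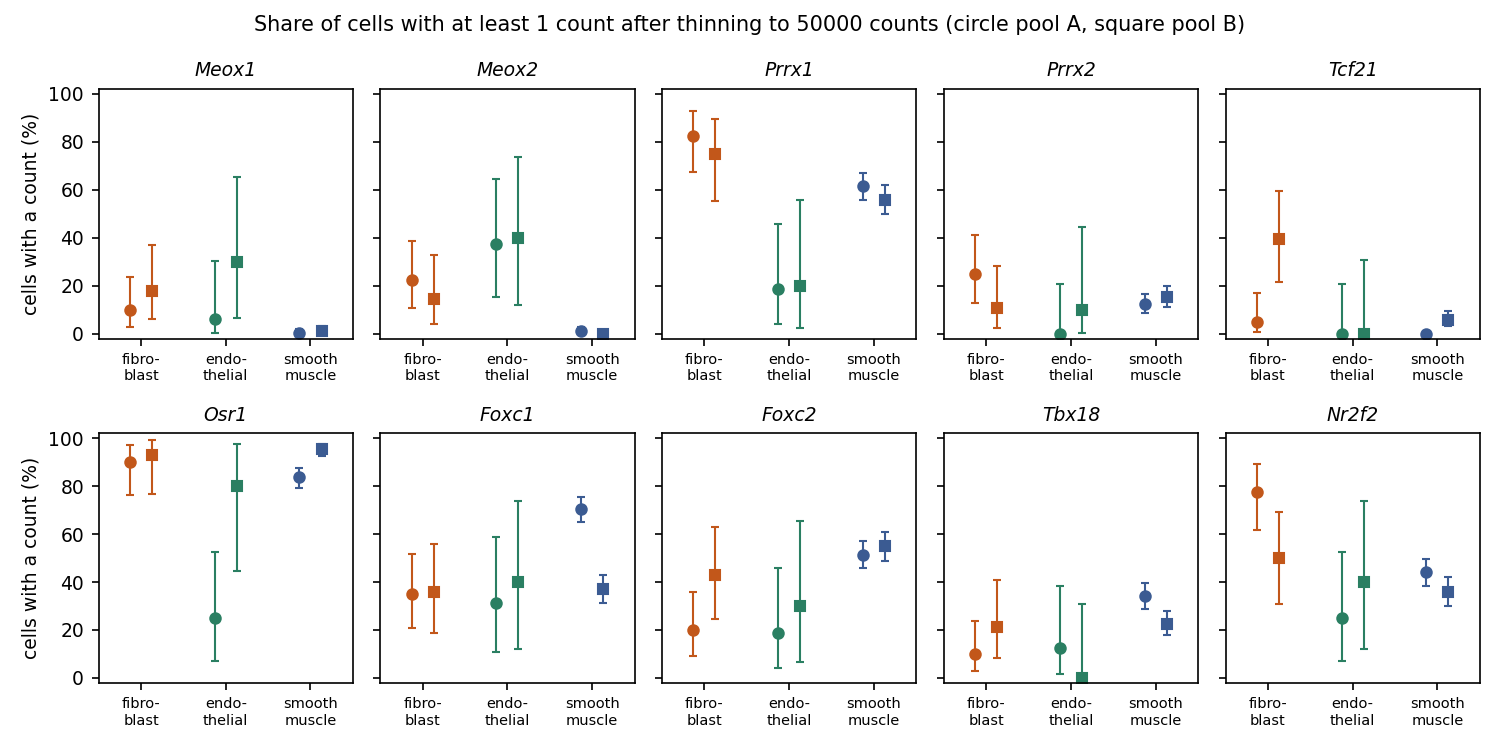
Percent of cells with at least 1 count of each factor after thinning every cell to 50000 counts, by class and pool (circles pool A, squares pool B), with exact 95% intervals for counting error. Intervals of fibroblast-like and smooth muscle-like cells lie apart in both pools for Meox1 and Meox2.

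Of the 10 members, 5 were called higher in fibroblast-like than in smooth muscle-like cells (Meox1, Meox2, Tcf21, Nr2f2 and Prrx1) and 0 were called lower. Over all 8570 genes tested, 3.01% were called higher and 1.98% lower at an adjusted p under 0.05 by edgeR. The members were chosen with earlier results of these data known, so their counts beside all genes are a description only. In endothelial-like against smooth muscle-like cells 2 members were called higher (Meox1 and Meox2) and 2 lower (Prrx1 and Osr1), where 3.31% of 8424 genes were called higher and 3.03% lower. In fibroblast-like against endothelial-like cells 3 members were called higher (Prrx1, Tcf21 and Osr1) and 0 lower, where 1.98% of 5904 genes were called higher and 1.68% lower. These 3 comparisons share sums, so they are not independent of one another. The calls of Meox1 and Meox2 over smooth muscle-like cells and of Tcf21 over endothelial-like cells carry the limit of the filter given above. The median log2 fold change of fibroblast-like over smooth muscle-like cells was 1.36 over the 10 members and -0.26 over all genes tested. Without the pool as a block, 2 members (Meox1 and Meox2) were called higher in fibroblast-like than in smooth muscle-like cells, and the same 2 in 1 fit of all 3 classes.

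**Figure D3:**
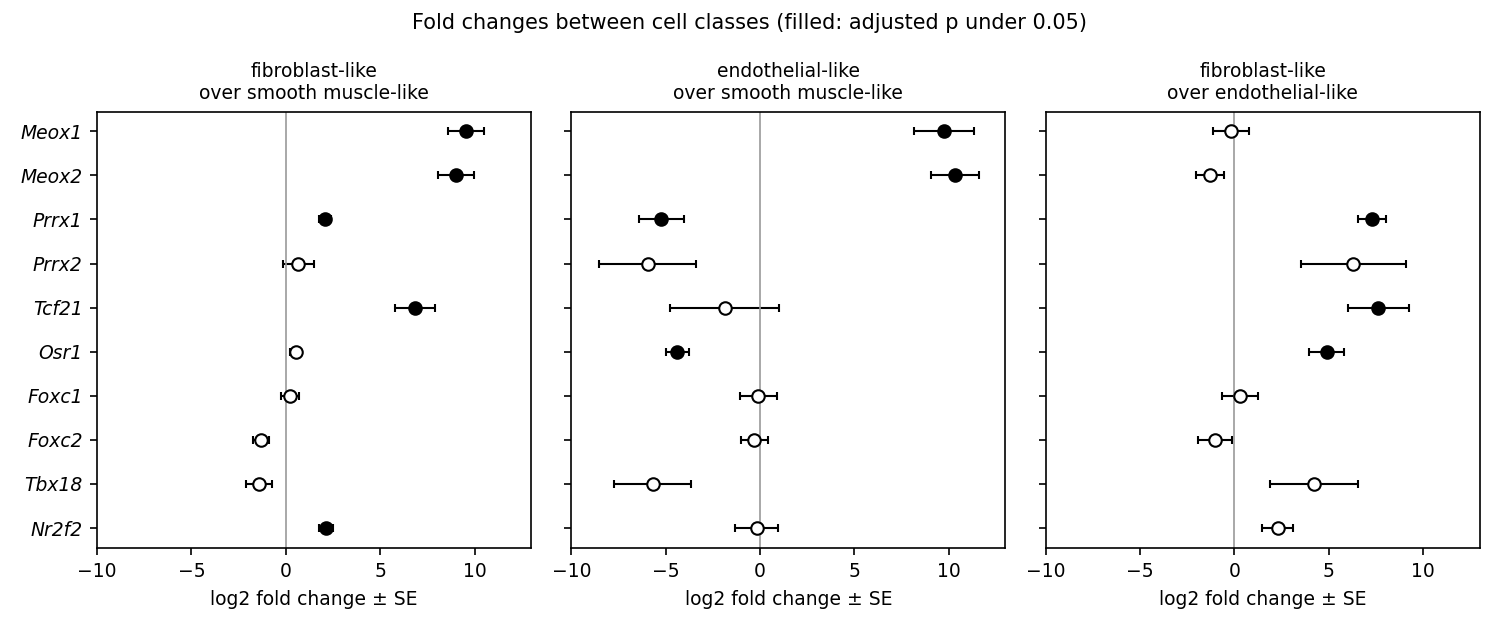
Log2 fold changes from edgeR, with standard errors derived from the F statistic, for each factor in 3 comparisons of cell classes. Points are filled where the adjusted p was under 0.05. Meox1 and Meox2 lie at 9.02 or more over smooth muscle-like cells in both fibroblast-like and endothelial-like cells, and neither was called between fibroblast-like and endothelial-like cells.

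Levels of different factors were compared per kilobase of exon. In fibroblast-like cells Osr1 stood at 277.7 ± 106.7 CPM per kilobase (SD over 2 pools), followed by Tcf21 at 42.6 ± 56.8, Prrx1 at 41.2 ± 22.2, Meox1 at 27.8 ± 0.44, Nr2f2 at 25.5 ± 17.9, Meox2 at 23.0002 ± 6.33, Prrx2 at 19.9 ± 18.9, Foxc2 at 16.5 ± 3.73, Foxc1 at 13.1 ± 2.56 and Tbx18 at 3.33 ± 2.24. Neighbours from Tcf21 down to Foxc1 did not differ beyond their spread. In smooth muscle-like cells the order in the same unit began with Osr1 at 203.7 ± 24.4 and Foxc2 at 44.7 ± 10.97, followed by Foxc1 at 14.3 ± 10.8, Prrx2 at 10.2 ± 0.42, Prrx1 at 9.88 ± 0.79, Tbx18 at 9.03 ± 4.24 and Nr2f2 at 5.58 ± 1.31. Tcf21 at 0.816, Meox2 at 0.0469 and Meox1 at 0.0428 closed that order. In endothelial-like cells Meox2 was first with 60.4 ± 11.3, Meox1 stood at 41.96 ± 35.9 and Foxc2 at 39.1 ± 23.3, and these 3 did not differ beyond their spread.

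Every fibroblast-like cell carried at least 2 of the factors. At equal depth, over both pools, the median number of members with a count was 4 per fibroblast-like cell (range 2 to 7). It was 2 per endothelial-like cell (0 to 7) and 3 per smooth muscle-like cell (0 to 7). By pool (A, B) the medians were 4 and 4 in fibroblast-like, 2 and 2.5 in endothelial-like, and 4 and 3 in smooth muscle-like cells. No member had a count in 4 endothelial-like and 7 smooth muscle-like cells. The usual pair in fibroblast-like cells was Prrx1 with Osr1, found together in 31 of 40 cells of pool A and 19 of 28 of pool B, where the product of the single shares gives 29.7 and 19.5 cells. Meox1 and Meox2 occurred together in 3 fibroblast-like cells of pool A and 2 of pool B, where the product gives 0.9 and 0.714 cells. Foxc1 and Foxc2 occurred together in 2 and 3 fibroblast-like cells, where the product gives 2.80 and 4.29. These counts describe small numbers of cells, and no test was made on them.

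**Figure D4:**
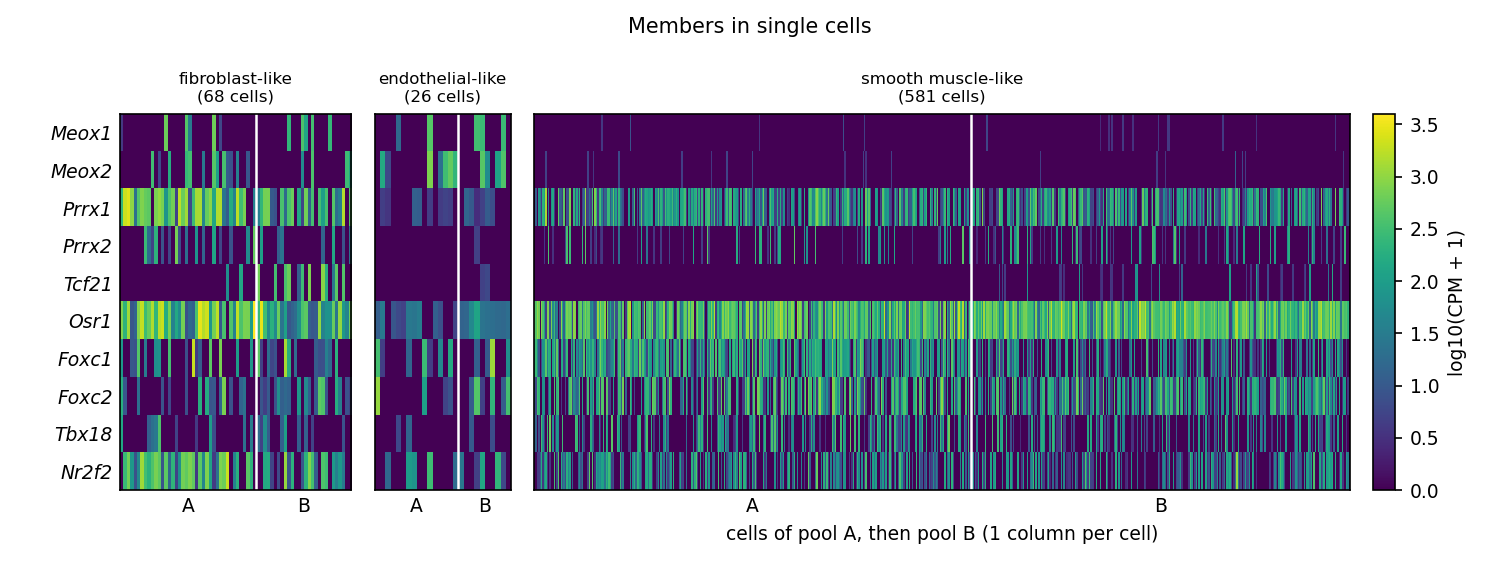
Each column is 1 cell and each row 1 factor, coloured by log10(CPM + 1), with pool A left of the white line and pool B right of it in each class; the panels have different widths per cell. Osr1 and Prrx1 fill most fibroblast-like and smooth muscle-like columns, Meox1 and Meox2 are limited to scattered fibroblast-like and endothelial-like cells apart from counts of 1 or 2, and Tcf21 counts are found in 12 fibroblast-like and 35 smooth muscle-like cells of pool B.

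Within smooth muscle-like cells, levels were compared over clusters with at least 10 cells in a pool, and no test was made over all of them. Osr1 ranged from 307.4 to 486 CPM over 7 clusters of pool A and from 366.4 to 584 CPM over 8 clusters of pool B. Prrx1 ranged from 71.001 to 155.1 CPM and from 71.7 to 133.9 CPM, and in both pools its highest value was in cluster 1, which was led by Tfap2b and Bche. Prrx2 was highest in the same cluster in both pools, at 59.7 and 38.7 CPM, against medians of 13.2 and 13.4 CPM over the clusters. Tbx18 spanned 37.2 to 76.1 CPM in pool A and 1.32 to 43.01 CPM in pool B. The small cluster 10 (7 cells), which held 5 of 6 pericyte markers at 100 CPM or more beside all 7 smooth muscle markers, differed in values from the class: Prrx1 stood at 681 CPM and Nr2f2 at 212.3 CPM, whereas Osr1 stood at 42.2 CPM and Foxc2 at 2.19 CPM.

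Cluster 1 (55 cells in pool A and 34 in pool B) was compared with cluster 0 (48 and 46 cells), the 2 largest clusters of smooth muscle-like cells. Prrx2 stood at 59.7 and 38.7 CPM in cluster 1, against 4.65 and 31.1 CPM in cluster 0, a log2 fold change of 1.96 ± 0.96 (adjusted p = 0.838, edgeR). Prrx1 stood at 155.1 and 133.9 CPM in cluster 1, against 105.1 and 99.6 CPM in cluster 0, a log2 fold change of 0.48 ± 0.23 (adjusted p = 0.838, edgeR). Of 6908 genes tested, 0 were called by edgeR (0%), 440 had an unadjusted p under 0.05, and DESeq2 called 1.55%. The 7 members that passed the filter on low counts were not among the 440, and DESeq2 called 0 of them.

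**Figure D5:**
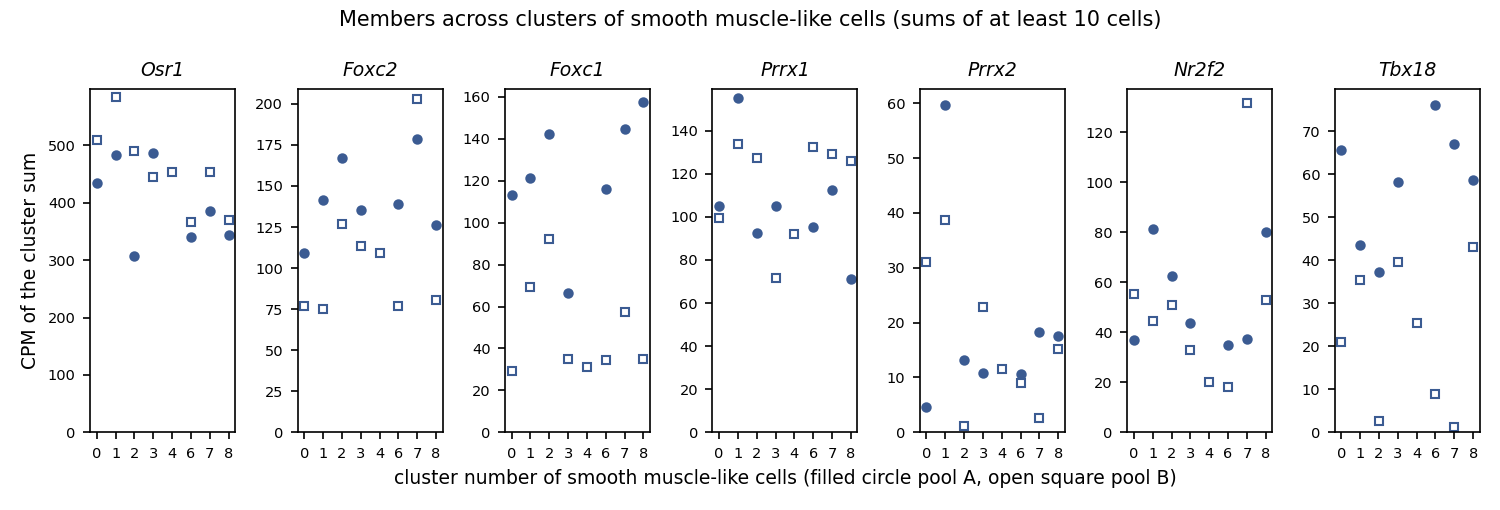
CPM of 7 factors in the clusters of smooth muscle-like cells that held at least 10 cells in a pool (filled circles pool A, open squares pool B), each on its own linear axis from 0. Cluster 1 holds the highest Prrx2 in both pools, at 59.7 and 38.7 CPM.

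Genes most like a member were sought over single cells at equal depth. Only genes kept for testing were compared, not those kept for clustering. Each had a count in at least 50% of the cells of both pools. In smooth muscle-like cells 1176 genes were compared, and the gene most like Osr1 was Mfap5, a microfibril protein of elastic tissue, with a Spearman rho of 0.237 in pool A and 0.265 in pool B. It was followed by Sfrp2, a secreted Wnt modulator, with 0.152 and 0.256, and by Gm26771 with 0.156 and 0.217. For Foxc2 the genes were Gas6, Casp12 and Lsm3 (mean rho 0.182, 0.181 and 0.176), and for Prrx1 they were Rbms3, Rbfox2 and Crispld2 (0.147, 0.146 and 0.144). In fibroblast-like cells (40 and 28) 840 genes were compared, and the first genes were Gpx8 for Prrx1 (mean rho 0.408), Bag1 for Osr1 (0.430) and Spag7 for Nr2f2 (0.360). Correlations of this size across sparse counts of cells that share a plate are given as a description only.

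Other genes of the same pathways were followed as lists. These lists too were chosen with earlier results of these data known, so their counts of calls beside all genes are a description only. Their median log2 fold changes of fibroblast-like over smooth muscle-like cells were 2.84 for hedgehog signalling, 0.65 for other mesenchymal and skeletal factors, 0.44 for retinoid signalling, 0.21 for close paralogs, -0.33 for smooth muscle regulators, -0.52 for cardiac and epicardial factors and -0.66 for basic helix-loop-helix partners and inhibitors, beside -0.26 over all genes tested. Among close paralogs of the members (15 genes, 12 tested) 1 was called higher in fibroblast-like than in smooth muscle-like cells and 0 lower: Foxd1, a forkhead gene of stromal progenitors, at 7.19 and 23.7 CPM against 0 and 0.0455 CPM, a gene that passed the filter on low counts through its fibroblast-like sums alone. The paralog with the highest level in both classes was Foxs1, at 87.6 and 40.2 CPM in fibroblast-like and 62.5 and 51.3 CPM among smooth muscle-like cells. Of the other mesenchymal and skeletal factors (34 genes, 27 tested) 3 were called higher and 1 lower. Ebf2, an early B-cell factor of mesenchymal progenitors, stood at 101.2 and 51.7 CPM in fibroblast-like against 1.16 and 1.26 CPM among smooth muscle-like cells (log2 fold change 6.02 ± 0.72, adjusted p = 0.00462, edgeR). Twist2 stood at 83.5 and 93.4 against 7.80 and 3.58 CPM, and Creb3l1, a transducer for collagen secretion, at 343.1 and 231.9 against 102.7 and 69.9 CPM. Scx, scleraxis, a tendon factor, was the gene called lower, at 1.17 and 1.75 CPM in fibroblast-like against 57.2 and 39.7 CPM among smooth muscle-like cells (-4.94 ± 0.94, adjusted p = 0.0315, edgeR). The highest of that list in smooth muscle-like cells was Zeb1, at 229.7 and 80.95 CPM in fibroblast-like and 155.04 and 122.6 CPM among smooth muscle-like cells, which was not called.

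Hedgehog signalling genes were the list with the most calls. Of 14 genes, 12 were tested, 6 were called higher in fibroblast-like cells and 0 lower, beside 3.01% of all genes called higher. Gli1, a transcription factor induced by the pathway, stood at 115.004 and 117.2 CPM in fibroblast-like against 4.88 and 2.22 CPM among smooth muscle-like cells (5.26 ± 0.58, adjusted p = 0.00352, edgeR). Hhip, which binds hedgehog ligands, stood at 71.7 and 17.7 against 1.60 and 0.0114 CPM. Its smooth muscle-like sums alone would not have passed the filter on low counts, a limit on its place among the 6 calls. Ptch1, the receptor, stood at 75.98 and 178.1 against 15.2 and 5.60 CPM, and Boc, a co-receptor, at 307.8 and 516 against 42.4 and 31.7 CPM. Smo, the signal transducer, was the gene of the list with the highest smooth muscle-like level, at 91.2 and 73.2 CPM in fibroblast-like and 65.6 and 38.8 CPM among smooth muscle-like cells, and was not called. The count of 6 fell to 3 without the block and at clustering resolution 0.25, and to 0 in 1 fit of all 3 classes.

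Retinoid signalling genes (17 genes, 14 tested) gave 2 called higher and 1 lower. Aldh1a1 and Aldh1a2, which make retinoic acid, stood at 252.6 and 345.3 CPM and at 63.1 and 21.99 CPM among fibroblast-like cells, against 9.13 and 5.37 CPM and 0.0544 and 0.0114 CPM among smooth muscle-like cells. Aldh1a2 passed the filter on low counts through its fibroblast-like sums alone. Dhrs3, which returns retinal to retinol, was lower, at 146.1 and 63.7 CPM in fibroblast-like against 333.1 and 236.9 CPM among smooth muscle-like cells (-1.42 ± 0.30, adjusted p = 0.0477, edgeR). Of the cardiac and epicardial factors (16 genes, 12 tested) 0 were called, and the highest were Gata6 in fibroblast-like cells (221.6 and 43.97 CPM, against 139.3 and 62.1 CPM among smooth muscle-like cells) and Mef2a in smooth muscle-like cells (115.7 and 99.7 CPM in fibroblast-like against 247.7 and 137.2 CPM).

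Of 15 smooth muscle regulators, all tested, 1 was called higher and 1 lower in fibroblast-like cells. Klf4 stood at 347.9 and 67.96 CPM in fibroblast-like against 26.6 and 6.35 CPM among smooth muscle-like cells (3.69 ± 0.36, adjusted p = 0.00222, edgeR). Myocd, the coactivator of contractile genes, stood at 7.63 and 44.97 against 431 and 822 CPM (-4.85 ± 0.46, adjusted p = 0.00202, edgeR). Among basic helix-loop-helix partners and inhibitors (10 genes, 8 tested) 1 was called higher and 1 lower. Tcf4, a dimer partner of factors such as Tcf21, stood at 322.7 and 186.1 CPM in fibroblast-like against 39.4 and 58.9 CPM among smooth muscle-like cells (2.47 ± 0.41, adjusted p = 0.0178, edgeR). Id2, which blocks such dimers, stood at 129.4 and 140.7 against 474 and 421 CPM (-1.61 ± 0.25, adjusted p = 0.0136, edgeR), and Id3, the highest of the list in both classes, at 663 and 614 against 719.6 and 678 CPM without a call.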

How the data were processed

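The deposited values are the authors' counts of reads for each gene in each cell, whole numbers without normalization, and 0 columns lay outside the labelled cells. The submitters' processing notes name bcl2fastq, Bowtie, Bowtie2, featureCounts and Subread with GRCm38 (mm10), without versions; duplicate removal and strandedness were not stated there. Symbols came from GENCODE M21, and 512 identifiers without a symbol held 0.217% of counts. Pool A held 367 cells (311 smooth muscle-like) and pool B 308. The members and gene lists were chosen with earlier results of these data known.

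A hash of the symbol divided genes into 23193 for clustering, with all markers, and 23287 for testing, with all lists, but the same cells served both. A minimum of 1000 genes and 20000 counts removed 0 cells. From the 2000 most variable clustering genes, 20 principal components and a graph of 15 neighbours were made, and Leiden clustering was run at resolution 1.0 with scanpy 1.11.5 and leidenalg 0.10.2. A cluster took the cell type with the largest share of its markers at 100 CPM or more, with at least 3, and clusters of 1 type formed a class. Doublets were not sought.

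Counts summed per pool and class (1979941 to 91884800) were fitted in edgeR 4.0.16 (R 4.3.3) with filterByExpr, TMM, a block for the pool and quasi-likelihood F tests. The SE given with an edgeR log2 fold change is its absolute value over the square root of the F statistic. It is an approximate value, not an SE reported by the fit. The procedure was also run on simulated sums with the same spread for every gene and no difference between pools. That setting cannot show how it behaves on sums carried by few cells. Adjusted p-values are Benjamini-Hochberg values over all genes tested, with a threshold of 0.05. In fits with the block they rest on how the class difference varied between only 2 pools. The spread of each gene was estimated partly from all other genes. The pairing comes from the labels, by which the classes in a pool have their mice and plate in common. Over 5774 genes (genes are not replicates), differences of pool A from pool B had r = 0.158 for fibroblast-like with smooth muscle-like, 0.151 for endothelial-like with smooth muscle-like and 0.0656 for fibroblast-like with endothelial-like cells. Within-pool log2 ratios had 0.02 CPM added. DESeq2 1.42.0 was an alternative, with others of normalization, filter, block, clustering, depth and left-out sums. The antisense genes overlapping Nr2f2 and Tbx18 held 266 and 250 counts over all cells.

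All members were named; of each other list, up to 3 genes per direction with the largest change among those called in fibroblast-like against smooth muscle-like cells and the highest gene in each class. One listed symbol, Drgx, matched no gene name. A gene that this rule names is not reported here. Shares have Clopper-Pearson intervals and CPM exact Poisson intervals (95%); both cover counting error alone, because Smart-seq2 reads carry no molecular identifiers and are not independent molecules.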

Additional observations from a re-analysis of the deposited data

Results flagged for a closer look

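The members Prrx2, Osr1 and Foxc1 had a fibroblast-like over smooth muscle-like ratio above 1 in one pool and below 1 in the other, and these differences between pools were not tested. Prrx2 had log2 ratios of 1.66 in pool A and -0.61 in pool B, a difference of 2.27. Osr1 had 0.92 in pool A and -0.13 in pool B, a difference of 1.05. Foxc1 had -0.56 in pool A and 0.75 in pool B, a difference of -1.32. None of these was called in the fit over both pools.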

How the results depend on the processing

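Fibroblast-like against smooth muscle-like cells gave 14.6% of tested genes called with DESeq2, 3.29% with no replicate block, 1.68% in 1 fit of 3 classes, 9.80% with thinned cells and 8.46% without smooth muscle-like clusters 0, 2, 3 and 10, beside 4.99%, and 4.04 to 10.9% when 1 sum was left out. Members called higher were 2 without the block (the unpaired fit) and 2 in the fit of 3 classes, beside 5, and 3 to 5 when 1 sum was left out. Endothelial-like against smooth muscle-like cells gave 12.7% with DESeq2, 1.67% without the block and 4.73% in the fit of 3 classes, beside 6.34%, and 3.01 to 26.6% with a sum left out; members called lower were 4 with DESeq2 and 1 without the block, beside 2, and 1 to 4 with a sum left out. Fibroblast-like against endothelial-like cells gave 12.5% with DESeq2 and 7.19% with endothelial-like cluster 9 alone, beside 3.66%, and 3.15 to 13.7% with a sum left out; members called higher were 1 without the block, beside 3, and 2 to 5 with a sum left out. The subclusters gave 1.55% with DESeq2, beside 0%, and 0 to 0.0941% with a sum left out. The cause of these changes was not tested. Uncalled log2 fold changes that turned sign were Prrx2 (-0.61 within pool B; -0.55 to 1.75 with a sum left out), Osr1 (-0.13 within pool B), Foxc1 (-0.013 without the block, -0.079 in deeper cells, -0.56 within pool A; -0.61 to 1.12 with a sum left out) and, in endothelial-like against smooth muscle-like cells, Foxc2 (-1.05 to 0.31 with a sum left out). Over all alternatives, signs also turned for Foxc1 (-3.46 to 0.87) and Nr2f2 (-0.69 to 0.28) in that comparison, and for Foxc2 (-1.67 to 4.59), Meox1 (-1.20 to 0.86) and Foxc1 (-0.32 to 3.55) in fibroblast-like against endothelial-like cells, none of them called there. Tcf21 in endothelial-like against smooth muscle-like cells had values below 0 in every alternative that gave an adjusted p. The settings without cluster 10, without clusters 0, 2, 3 and 10 and with cluster 9 alone were chosen after seeing the data. RLE scaling moved the median log2 fold change of all genes by 0.18 in endothelial-like against smooth muscle-like cells and by -0.11 in fibroblast-like against endothelial-like cells, and leaving out the filter moved the first by -0.20 and that of fibroblast-like against smooth muscle-like cells by -0.18. Mean shares of cells moved by more than the SD over pools in 48 settings and by less in 72.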
